A study of Mus musculus with 35 samples.

Results

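The 34 genes described here build sterols and fatty acids or control their building: 18 enzymes of the sterol pathway, 9 enzymes of fatty acid synthesis, 5 regulators of the SREBP system and 2 sterol carriers. They were chosen by symbol from 36 listed names, out of 20261 genes in the normalized table. Sc4mol and Msmo1 are 2 names of 1 gene, held in the table as Sc4mol, and Hmgcs1 was not analysed here. All 34 genes passed the filter on low values (a mean of at least 10 normalized reads in at least 1 group), although Abca1 did so only through JNKi cells at 7 d.

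RNA was sequenced from NMuMG, an epithelial line of the mouse mammary gland, recorded as wild type with the strain entry E9. One arm received JNKi, which blocks JNK, the c-Jun kinase that answers to stress and cytokines. The labels do not name the compound, and the other arm received the vehicle DMSO. Each arm was sampled at 24, 48, 72 and 96 h and at 7 d, with 2 libraries at each time. The sample titles and the series title place all 20 libraries in an epithelial-mesenchymal transition (EMT), which transforming growth factor beta (TGF-β) induces in these cells. The treatment protocol, stated for TGF-β time courses and attached to all samples, gives TGF-β at 2 ng/ml with replenishment at each medium change. These 20 libraries included no arm without TGF-β, so time under TGF-β, time in culture and time since the last medium change cannot be told apart. A separate TGF-β time course in the same series was not analysed here. The labels do not say that the 2 libraries of a group came from separate cultures, so p-values here reflect the spread between the libraries alone, and that spread may be technical.

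Animal cells make cholesterol from acetyl-CoA through mevalonate, farnesyl diphosphate, squalene and lanosterol, and the farnesyl branch point also feeds protein prenylation, ubiquinone and dolichol. Palmitate is made from the same acetyl-CoA and is then elongated and desaturated. Both routes are driven by the SREBP transcription factors: SREBP2, encoded by Srebf2, acts mainly on sterol genes, and SREBP1, encoded by Srebf1, acts more on fatty acid genes. When sterols are plentiful, INSIG proteins hold the escort protein SCAP and the SREBP precursors in the endoplasmic reticulum, and Insig1 is itself an SREBP target. In the mammary gland these routes supply membranes and, during lactation, milk fat.

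Library depth, from the recovered reads, ran from 9.49 to 43.8 M reads in JNKi cells and from 16.7 to 48.6 M reads in DMSO cells. The shallowest library of each arm was replicate 1 at 7 d. Epithelial markers summed to 98704 to 376914 normalized reads over 7 genes. Krt8 and Krt18 were the highest, with group means of up to 192740 and 132803. Epcam was at 0 in both libraries at 24, 48 and 96 h of both arms and at 72 h of JNKi. Cldn7 was at 0 in both libraries of DMSO at 24 h, and Cldn3 was at 0 in those of JNKi at 24 and 48 h. Neither claudin reached the filter. Cdh1, Krt8, Krt18 and Krt19 were called lower at 7 d against 24 h in DMSO cells. Epcam, whose highest group mean of 11.85 was near the filter, was called higher there. The epithelial sum was 105785 and 98704 in JNKi cells at 7 d, and 131061 and 166271 in DMSO cells at 7 d. At 24 h it was 333943 and 376914 in JNKi cells, and 328364 and 346068 in DMSO cells. Markers of adipocytes, the other lipid-making cell of the gland, summed to 5.2 to 46.2 normalized reads over 7 genes, with Plin1 at 0 in both libraries of 8 of the 10 groups. Leukocyte markers (5 genes) summed to 1129 to 2443 normalized reads. At 7 d against 24 h in DMSO cells 4 of the 5 were called higher and Cd14 lower. Of all genes tested, 32% were called higher there and 28% lower. Ptprc and Itgam, among those called higher, were low, with highest group means of 14.3 and 29.95. Endothelial markers (4 genes) summed to 407.5 and 408.1 in JNKi cells at 7 d and to 348.5 and 299.5 in DMSO cells at 7 d. At 24 h the endothelial sum was 73 and 65.5 in JNKi cells and 87.1 and 59.1 in DMSO cells. All 3 endothelial markers tested were called higher at 7 d in both arms. The share of all genes called higher was 31.7% in JNKi cells and 32% in DMSO cells. Pecam1 and Kdr were near the filter, with highest group means of 18.85 and 20.55, and at 0 in both DMSO libraries of 24 h. Their calls are not counted as support. Cdh5 alone had 303 and 273.1 in DMSO cells at 7 d. The DMSO epithelial sum was still 313486 and 329773 at 48 h and was 157318 and 144742 at 96 h. The part of these marker changes in the results that follow was not tested. In bulk RNA, fewer cells of a type and less RNA per cell cannot be told apart.

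Sterol pathway transcripts fell early and together in DMSO cells. At 48 h against 24 h, 17 of the 18 sterol enzymes were lower, with a median log2 fold change of -1.20 over the 18, while the median over all genes tested was 0. The same count, 17 of 18, was lower at 96 h (median -1.89) and at 7 d (median -1.47). Ggps1, which makes geranylgeranyl diphosphate for prenylation and not for sterols, was the exception at all 3 of these times. Fatty acid enzymes moved later: 3 of 9 were lower at 48 h, 6 at 96 h and 7 at 7 d. The difference in timing between the enzyme groups was not itself tested.

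Over all 34 members in DMSO cells, limma with Benjamini-Hochberg adjustment at 0.05 called 1 higher and 22 lower (48 h), 1 higher and 23 lower (72 h), 0 higher and 27 lower (96 h), and 2 higher and 28 lower (7 d), each against 24 h. The background was wide, since many genes changed with time: 28.4% of the 13896 genes tested were called at 48 h, 13.7% being lower. The share called was 46.8% at 72 h with 22.8% lower, 63.3% at 96 h with 30.5% lower, and 59.9% at 7 d with 28% lower. In JNKi cells 0 members were called higher and 28 lower at 96 h against 24 h, and 1 was called higher and 29 lower at 7 d against 24 h. The higher one was Abca1, which passed the filter only through JNKi at 7 d, so it had to differ there and its call is not counted as support. The background in JNKi cells was 59.8% of genes called at 96 h (30.8% higher and 29% lower) and 58% at 7 d (26.3% lower). Leaving out replicate 1 of both 7 d groups left 29 of 34 members called in JNKi cells and 28 of 34 in DMSO cells at 7 d against 24 h. That the sterol genes fell with time was already known from these data when the members were chosen.

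**Figure D1:**
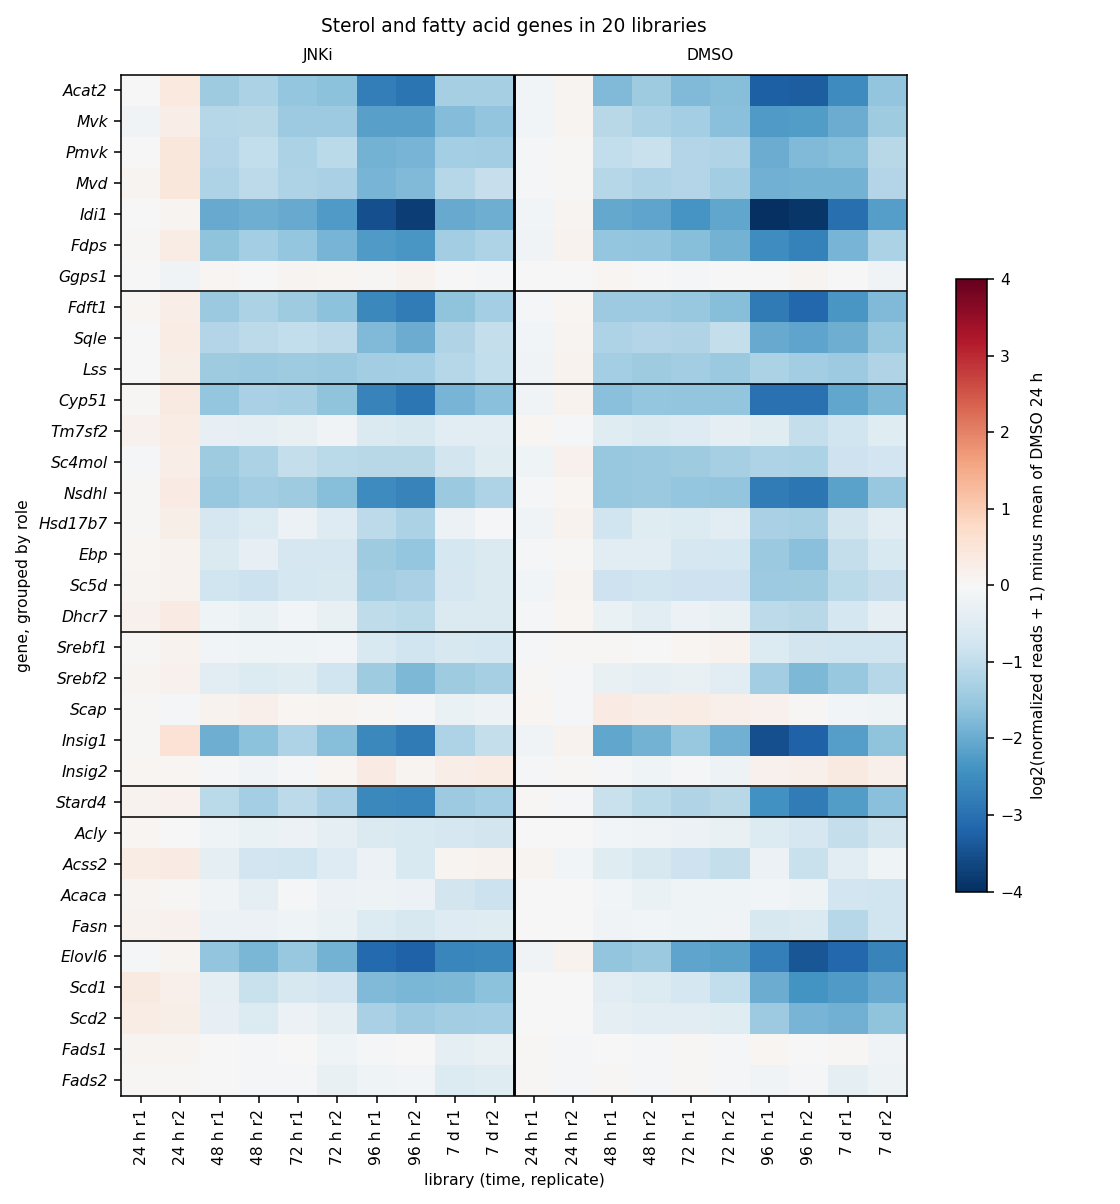
Log2(normalized reads + 1) minus the mean of DMSO at 24 h for 33 members (rows, grouped by role from mevalonate enzymes at the top to desaturases at the bottom; Abca1 is left out because it is near 0) in each of the 20 libraries (columns, JNKi left and DMSO right, r1 and r2 being replicates). Blue cells deepen from 48 h in most sterol enzymes and are deepest at 96 h, while Ggps1, Scap, Insig2, Fads1 and Fads2 stay near white in both arms.

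Promoter sequence is shown for 6 members: the sterol enzymes Idi1, Cyp51 and Sc4mol, the regulators Srebf2 and Insig1, and the elongase Elovl6, all of which were lower at 7 d than at 24 h in DMSO cells. The windows come from RefSeq on build GRCm38.p6, matched by symbol, and cover the 250 bases before each gene's start on the gene's own strand. The expression files were made on mm9 and give no coordinates. The windows are chr13:8885356-8885605 on the plus strand for Idi1, chr5:4104698-4104947 on the minus strand for Cyp51, chr8:64733579-64733828 on the minus strand for Sc4mol, chr15:82147019-82147268 on the plus strand for Srebf2, chr5:28071162-28071411 on the plus strand for Insig1 and chr3:129532136-129532385 on the plus strand for Elovl6. Capitals mark matches, on either strand, to CCAAT (the box bound by NF-Y) or to TCACNNCA, a relaxed form of the sterol regulatory element (SRE) bound by SREBPs.
Idi1: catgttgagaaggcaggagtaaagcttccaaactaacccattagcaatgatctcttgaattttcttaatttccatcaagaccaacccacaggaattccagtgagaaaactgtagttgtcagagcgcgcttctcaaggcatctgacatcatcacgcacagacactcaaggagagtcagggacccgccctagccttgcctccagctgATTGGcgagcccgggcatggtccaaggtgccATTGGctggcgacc
Cyp51: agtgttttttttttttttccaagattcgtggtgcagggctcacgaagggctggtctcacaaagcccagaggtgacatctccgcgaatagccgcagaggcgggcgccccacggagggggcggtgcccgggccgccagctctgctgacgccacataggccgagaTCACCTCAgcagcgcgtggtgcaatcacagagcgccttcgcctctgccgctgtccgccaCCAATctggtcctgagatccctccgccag
Sc4mol: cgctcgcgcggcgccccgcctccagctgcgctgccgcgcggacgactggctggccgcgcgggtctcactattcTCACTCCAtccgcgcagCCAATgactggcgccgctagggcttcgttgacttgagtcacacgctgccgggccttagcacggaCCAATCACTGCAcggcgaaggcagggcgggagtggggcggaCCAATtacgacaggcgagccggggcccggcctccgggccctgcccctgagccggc
Srebf2: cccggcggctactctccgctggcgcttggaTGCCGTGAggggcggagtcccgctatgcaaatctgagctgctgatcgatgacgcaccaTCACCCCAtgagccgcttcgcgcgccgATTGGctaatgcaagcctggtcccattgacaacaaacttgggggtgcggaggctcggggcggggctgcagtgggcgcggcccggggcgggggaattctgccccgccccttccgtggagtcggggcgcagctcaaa
Insig1: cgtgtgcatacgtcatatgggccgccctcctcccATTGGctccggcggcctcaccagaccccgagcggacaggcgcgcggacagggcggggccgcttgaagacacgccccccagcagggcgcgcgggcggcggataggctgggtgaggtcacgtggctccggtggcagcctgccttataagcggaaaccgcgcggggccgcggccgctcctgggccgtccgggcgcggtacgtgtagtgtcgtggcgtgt
Elovl6: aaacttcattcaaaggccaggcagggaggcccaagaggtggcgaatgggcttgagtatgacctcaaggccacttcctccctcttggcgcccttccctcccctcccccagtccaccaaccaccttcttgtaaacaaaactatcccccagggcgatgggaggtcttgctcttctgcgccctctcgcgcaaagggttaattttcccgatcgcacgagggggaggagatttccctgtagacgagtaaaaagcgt

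Of these windows, Cyp51 held a relaxed SRE beginning 88 bases before the start and a CCAAT box beginning 29 bases before it. Srebf2 held relaxed SREs at 220 and 162 bases and a CCAAT box at 135 bases. Sc4mol held relaxed SREs at 177 and 92 bases and CCAAT boxes at 160, 96 and 55 bases, and its nearer SRE shares 1 base with a CCAAT box. Idi1 held CCAAT boxes at 45 and 14 bases, Insig1 held 1 at 216 bases, and Elovl6 held neither motif. Windows were available for 27 of the 34 members. A gene was counted when any of its windows held the motif, and the 15 sterol enzymes had 18 windows and the 5 regulators 10. CCAAT was present in 14 of 15 sterol enzymes (93.3%), in 4 of 5 regulators and in 2 of 6 fatty acid enzymes. The share was 40.4% of 9733 tested genes with a window. The relaxed SRE was present in 6 of 15 sterol enzymes, 2 of 5 regulators and 0 of 6 fatty acid enzymes, against 11.7% of all genes. A stricter form, TCACNCCAC, was in 0 of the 27 member promoters and in 1.35% of all, and the relaxed form was chosen after that. Among the sterol enzymes and regulators, Ggps1, Insig2 and Scap were not called lower in DMSO cells at the last time against the first. Ggps1 held 3 CCAAT boxes, and Scap held neither motif. Insig2 held a relaxed SRE and 3 CCAAT boxes in 1 of its windows. Whether the motifs go with the fall was not tested. These matches describe the letters of 250 bases and do not show binding.

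Within the mevalonate enzymes, Idi1, the isomerase that turns isopentenyl diphosphate into its reactive isomer, fell the furthest. In JNKi cells Idi1 had 4641.7 and 5087 normalized reads (24 h), 1168.9 and 1228.1 (48 h), 1167.1 and 988.7 (72 h), 414.9 and 343.9 (96 h), and 1172.9 and 1227.6 (7 d). In DMSO cells it had 4340.1 and 5150.8 (24 h), 1136.6 and 1092.7 (48 h), 919.9 and 1120.2 (72 h), 281.9 and 314.8 (96 h), and 580.7 and 1032.1 (7 d). Both arms were thus highest at 24 h and lowest at 96 h, with no library of a later time reaching the 24 h level. In DMSO cells the log2 fold change of Idi1 against 24 h was -2.08 at 48 h, -3.98 at 96 h (SE 0.19, adjusted p = 1.54e-10) and -2.61 at 7 d (SE 0.19, adjusted p = 1.37e-08). The 96 h mean was 6.29% of the 24 h mean in DMSO cells and 7.80% in JNKi cells. Acat2, the cytosolic thiolase that joins acetyl-CoA units at the start of the route, had 255.7 and 226.6 normalized reads in JNKi cells at 96 h and 179.4 and 176.4 in DMSO cells at 96 h. Its 24 h values were 1699 and 2243.1 in JNKi cells and 1598 and 1869.7 in DMSO cells, well above every later library. Acat2 changed by -3.27 at 96 h and by -2.05 at 7 d in DMSO cells (SE 0.21 each, adjusted p = 2.72e-09 and 6.03e-07).

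The kinases Mvk and Pmvk, the decarboxylase Mvd and Fdps, which makes farnesyl diphosphate, all fell as well. Their DMSO log2 fold changes at 7 d against 24 h were -1.71, -1.40, -1.54 and -1.56, each past the test. Ggps1 had 865.1 and 844.1 normalized reads in JNKi cells at 7 d and 878.6 and 800.9 in DMSO cells at 7 d. Its 24 h values were 870.3 and 802 in JNKi cells and 881.2 and 886.6 in DMSO cells, close to those of 7 d. The DMSO log2 difference of Ggps1 at 7 d against 24 h was -0.08 (SE 0.09, adjusted p = 0.464), although its 2 DMSO groups did not overlap.

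Of the squalene and lanosterol enzymes, Fdft1 and Sqle had their lowest means at 96 h, and Lss did not. Fdft1, squalene synthase, had 895.6 and 1058.3 normalized reads in JNKi cells at 7 d against 2882 and 3283.2 at 24 h, and 538.6 and 796.9 in DMSO cells at 7 d against 2594.5 and 2847.1 at 24 h. In both arms the 7 d libraries of Fdft1 lay far below those of 24 h. Its DMSO log2 fold change was -2.98 at 96 h and -2.05 at 7 d (SE 0.16, adjusted p = 3.75e-08). Sqle, squalene epoxidase, a rate-controlling step, had 7841.9 and 9523.7 normalized reads (24 h), 3463.6 and 3815 (48 h), 3967.1 and 3775.5 (72 h), 2276.9 and 1981.8 (96 h), and 3410.5 and 4063.6 (7 d) in JNKi cells. In DMSO cells Sqle had 7273.3 and 8408.7 (24 h), 3331.5 and 3444.9 (48 h), 3418.8 and 3995.4 (72 h), 1923.5 and 1827.3 (96 h), and 2028.2 and 2730.6 (7 d). The arms overlapped or lay close at 48 h and 72 h, and at 7 d both JNKi libraries lay above both DMSO libraries. Sqle changed by -1.73 in DMSO cells at 7 d against 24 h (SE 0.13, adjusted p = 3.38e-08). Lss, lanosterol synthase, was low by 48 h in both arms and stayed there in DMSO cells. Its DMSO mean was 38.0% of the 24 h mean (48 h), 36.6% (72 h), 39.4% (96 h) and 39.8% (7 d). In JNKi cells its mean was 33.4% (48 h), 33.4% (72 h), 35.4% (96 h) and 44.0% (7 d), and it was called higher at 7 d than at 96 h.

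Later sterol enzymes differed more among themselves. Cyp51, the lanosterol demethylase, had 48930.5 and 61164.8 normalized reads (24 h), 16469 and 19337.4 (48 h), 19049.5 and 15602.3 (72 h), 7394.1 and 6358.4 (96 h), and 13137.2 and 15020.7 (7 d) in JNKi cells. In DMSO cells Cyp51 had 42918.8 and 52845.4 (24 h), 14931.8 and 16456.6 (48 h), 15788.9 and 15991.5 (72 h), 6057.8 and 6058.3 (96 h), and 11354.4 and 13715.9 (7 d). The course has a drop by 48 h, a plateau at 72 h, a second drop at 96 h and a partial return at 7 d in both arms. Cyp51 changed by -2.97 at 96 h and -1.93 at 7 d in DMSO cells (SE 0.14 each, adjusted p = 1.54e-10 and 1.48e-08). Nsdhl, a dehydrogenase that removes the methyl groups with Sc4mol, had 579 and 519 normalized reads in JNKi cells at 96 h and 476.7 and 446.9 in DMSO cells at 96 h. At 24 h Nsdhl had 3430.7 and 4173.1 in JNKi cells and 3125.8 and 3508.8 in DMSO cells, so the times did not overlap in either arm. Its DMSO log2 fold change was -2.84 at 96 h and -1.83 at 7 d (SE 0.16 each).

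Sc4mol, the methylsterol oxidase, was lowest at 48 h and not at 96 h. Its mean in JNKi cells was 36.5% of the 24 h mean (48 h), 45.5% (72 h), 42.5% (96 h) and 60.6% (7 d), and in DMSO cells it was 35.0%, 38.5%, 41.6% and 57.1% at those times. The reductases Tm7sf2 and Dhcr7, the keto-reductase Hsd17b7, the isomerase Ebp and the desaturase Sc5d were lower as well. Their DMSO log2 fold changes at 7 d against 24 h were -0.63 for Tm7sf2, -0.55 for Dhcr7, -0.60 for Hsd17b7, -0.79 for Ebp, all past the test, and Sc5d, also called, kept 49.9% of its 24 h mean. At 48 h the calls of Tm7sf2, Hsd17b7, Ebp and Dhcr7 were each lost without 1 or more of the single DMSO libraries of 24 h or 48 h.

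**Figure D2:**
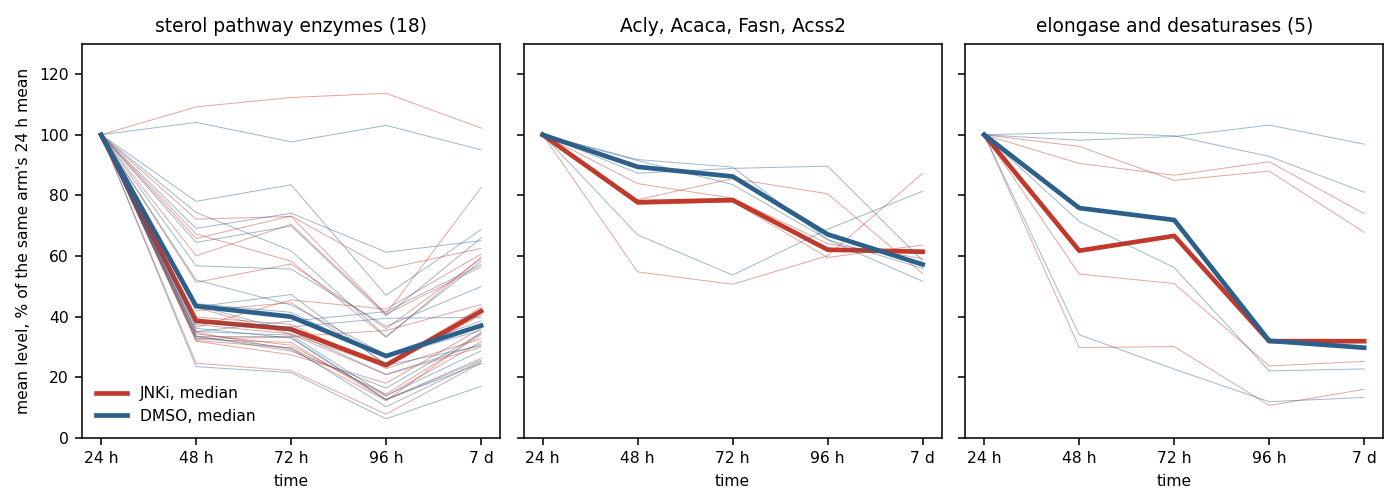
Mean of each gene as a percent of the same arm's 24 h mean (y axis) at 5 times (x axis, equally spaced categories), with thin lines for genes, thick lines for the median, red for JNKi and blue for DMSO. The median of the 18 sterol enzymes reaches 24.0% in JNKi and 27.0% in DMSO at 96 h and is 41.8% and 37.0% at 7 d, whereas Acly, Acaca, Fasn and Acss2 fall more slowly and the elongase and desaturases split into falling and flat genes.

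Median levels of the sterol enzymes stepped down by 48 h and again by 96 h, with a partial return at 7 d. In DMSO cells their median level was 43.5% of the 24 h mean (48 h), 40.0% (72 h), 27.0% (96 h) and 37.0% (7 d). In JNKi cells the median was 38.6% (48 h), 35.9% (72 h), 24.0% (96 h) and 41.8% (7 d). The lowest mean stood at 96 h for 15 of 18 sterol enzymes in JNKi cells and for 15 of 18 in DMSO cells. Between 48 h and 72 h limma called 0 of 34 members in DMSO cells, where only 0.259% of all genes were called. The pause was thus not particular to the members. For that step 3 members had an unadjusted p under 0.05, and edgeR and DESeq2 called 0. In JNKi cells 72 h against 48 h and 96 h against 72 h were not tested. At 96 h against 72 h, 1 member was called higher and 23 lower in DMSO cells, 14 of them sterol enzymes, where 36.6% of all genes were called and 20.8% called lower.

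At 7 d against 96 h the direction turned for sterol genes. In JNKi cells 21 members were called higher and 4 lower, 16 of the 21 being sterol enzymes and 1 being Abca1, against 39.7% of genes called (23.2% higher). In DMSO cells 15 members were called higher and 4 lower, 13 of the 15 being sterol enzymes, against 36.5% of genes called (21% higher). Idi1 was 1.66 higher on the log2 scale at 7 d than at 96 h in JNKi cells (SE 0.19, adjusted p = 8.67e-06) and 1.37 higher in DMSO cells (SE 0.19, adjusted p = 5.71e-05). Cyp51 was 1.03 higher in JNKi cells and 1.04 higher in DMSO cells (SE 0.14 each). The 4 lower members in DMSO cells were Acaca, Acly, Fasn and Scap, and in JNKi cells they were Acaca, Fads1, Fads2 and Scap. No fatty acid enzyme was called higher in DMSO cells, and Acss2 and Elovl6 were called higher in JNKi cells.

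Among fatty acid enzymes, Fasn, the synthase that assembles palmitate, showed a slow decline. In JNKi cells Fasn had 20894.6 and 21352.7 normalized reads (24 h), 16216.5 and 16297.7 (48 h), 16983.3 and 15908.8 (72 h), 12977.2 and 12169.9 (96 h), and 13284.2 and 13591.5 (7 d). In DMSO cells it had 18890.9 and 19429.6 (24 h), 17544.5 and 17642 (48 h), 16850.2 and 17385.1 (72 h), 12218 and 12818.9 (96 h), and 8782.6 and 11019.1 (7 d). The DMSO libraries of 7 d were the lowest of their arm, whereas in JNKi cells 7 d lay above 96 h. Fasn changed by -0.61 at 96 h (SE 0.09, adjusted p = 1.80e-05) and by -0.96 at 7 d (SE 0.09, adjusted p = 2.48e-07) in DMSO cells, and its 48 h value of -0.12 did not pass. Acly, which makes cytosolic acetyl-CoA from citrate, had 6881.9 and 6614.8 normalized reads in JNKi cells at 7 d and 5761.4 and 6609.5 in DMSO cells at 7 d. Its 24 h values were 11680.8 and 11121.3 in JNKi cells and 11298.6 and 10827.7 in DMSO cells, above all 7 d libraries. The DMSO log2 fold changes of Acly were -0.61 at 96 h and -0.84 at 7 d (SE 0.08 each).

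Acaca, the carboxylase that makes malonyl-CoA, kept 89.7% of its 24 h mean at 96 h in DMSO cells and 58.5% at 7 d. Its log2 fold change at 7 d against 24 h was -0.77 (SE 0.09, adjusted p = 1.84e-06). Acss2, which makes acetyl-CoA from acetate, ran another course, with 403.7 and 417 normalized reads (24 h), 187.3 and 228.5 (72 h), and 354.9 and 361.9 (7 d) in JNKi cells. In DMSO cells it had 357 and 302.7 (24 h), 185.6 and 168.8 (72 h), and 244.1 and 292.7 (7 d). The 72 h libraries were below those of 24 h and 7 d in both arms. Acss2 was lower at 48 h (-0.57, SE 0.20, adjusted p = 0.0448), a call lost with edgeR and without any 1 of the DMSO libraries of 24 to 72 h, and its 7 d value of -0.30 had an adjusted p of 0.219.

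The elongase and desaturases split. Elovl6, which lengthens palmitate to stearate, had 770.2 and 865.9 normalized reads (24 h), 264.6 and 222.7 (48 h), 278.5 and 214 (72 h), 90.9 and 84 (96 h), and 130.3 and 131.6 (7 d) in JNKi cells. In DMSO cells it had 715.4 and 882.2 (24 h), 262.6 and 280.7 (48 h), 182.5 and 179.4 (72 h), 117.8 and 72.7 (96 h), and 89.2 and 123.7 (7 d). Elovl6 thus fell by 48 h as the sterol enzymes did, and it stayed low at 7 d. Its log2 fold change at 7 d against 24 h in DMSO cells was -2.91 (SE 0.21, adjusted p = 1.50e-08), the lowest value of the 34 members. Scd1, which puts a double bond into stearate, had 684.9 and 760.8 normalized reads in JNKi cells at 7 d and 488.1 and 590.7 in DMSO cells at 7 d. At 24 h Scd1 had 3030.4 and 2703.2 in JNKi cells and 2423 and 2322.4 in DMSO cells. The 24 h libraries lay far above those of 7 d, and the DMSO change was -2.14 (SE 0.16, adjusted p = 1.84e-08). Scd2, a second enzyme of that reaction, had 124648.4 and 127202.1 in JNKi cells at 7 d and 87147.8 and 108114.8 in DMSO cells at 7 d, against 404460.6 and 385536.2 in JNKi cells at 24 h and 335128.5 and 321447.8 in DMSO cells at 24 h. Its DMSO change was -1.76 (SE 0.16), and no 7 d library reached a 24 h library.

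Fads1 and Fads2, which desaturate polyunsaturated fatty acids, changed little in DMSO cells. Fads1 had 7860.7 and 8130.1 normalized reads in JNKi cells at 7 d, against 10759.9 and 10864.1 at 24 h, and 10322.7 and 9173.9 in DMSO cells at 7 d, against 10330.2 and 9789.8 at 24 h. Its DMSO libraries of the 2 times overlapped, and its JNKi libraries of the 2 times did not. The log2 change of Fads1 at 7 d against 24 h was -0.44 in JNKi cells (SE 0.08, adjusted p = 2e-04) and -0.05 in DMSO cells (SE 0.08, adjusted p = 0.618). Fads2 changed by -0.56 in JNKi cells and by -0.31 in DMSO cells (SE 0.09 each), and the DMSO call was lost without replicate 1 of 24 h or of 7 d (-0.26 and -0.21).

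**Figure D3:**
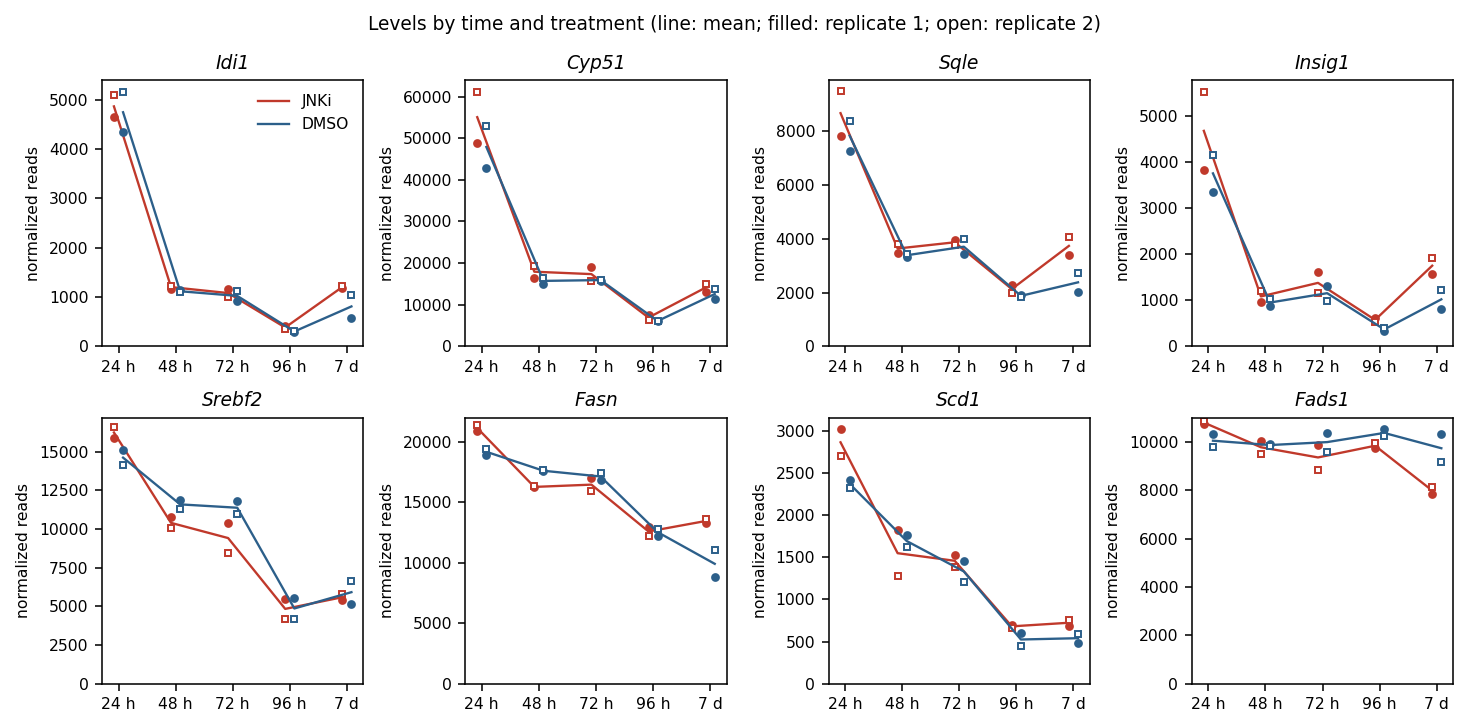
Normalized reads (y axis, linear from 0) of 8 members at 5 times (x axis, equally spaced categories) in JNKi (red, drawn left) and DMSO (blue), with filled circles for replicate 1, open squares for replicate 2 and lines through the means. Idi1, Cyp51, Sqle and Insig1 drop by 48 h, the DMSO means of Srebf2, Fasn and Scd1 take their largest step between 72 h and 96 h, and Fads1 stays between 9173.9 and 10528.8 in DMSO while both JNKi libraries of 7 d, at 7860.7 and 8130.1, lie below every DMSO library.

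Regulators of the pathway did not move as 1 block. Insig1, whose protein retains the SREBP precursors, had 3838.9 and 5518.3 normalized reads (24 h), 968.4 and 1193.3 (48 h), 1602 and 1149.6 (72 h), 619.4 and 523.8 (96 h), and 1577.7 and 1919.8 (7 d) in JNKi cells. In DMSO cells it had 3350.6 and 4159 (24 h), 881 and 1015.8 (48 h), 1317 and 986.6 (72 h), 328.7 and 399 (96 h), and 806.2 and 1229.4 (7 d). Insig1 shared the early drop, the low at 96 h and the return at 7 d with the sterol enzymes. Its DMSO log2 fold changes were -1.98 at 48 h, -3.36 at 96 h and -1.91 at 7 d against 24 h (SE 0.22 each, adjusted p = 8.85e-06, 3.35e-09 and 2.44e-06). Insig2, the second INSIG gene, had 870.6 and 876.3 normalized reads in JNKi cells at 7 d and 932.5 and 831.3 in DMSO cells at 7 d, against 764.6 and 752.5 in JNKi cells at 24 h and 702.7 and 736.6 in DMSO cells at 24 h. All 7 d libraries lay above all 24 h libraries. Insig2 was higher at 7 d in DMSO cells by 0.29 (SE 0.10, adjusted p = 0.0191), a call lost without replicate 1 of 24 h (0.26) or of 7 d (0.21).

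Srebf2 kept more of its 24 h level at 48 h than at 96 h in both arms. In JNKi cells Srebf2 had 15895.2 and 16572.5 normalized reads (24 h), 10752.2 and 10030.2 (48 h), 10406 and 8411.8 (72 h), 5478.9 and 4180.8 (96 h), and 5404.1 and 5763 (7 d). In DMSO cells it had 15089.1 and 14128.9 (24 h), 11861.6 and 11312.1 (48 h), 11782.9 and 10955.8 (72 h), 5551 and 4161.8 (96 h), and 5158.8 and 6661.6 (7 d). The JNKi mean was 64.0% of the 24 h mean at 48 h and 29.8% at 96 h, and the DMSO mean was 79.3% at 48 h and 33.2% at 96 h. Its DMSO log2 difference of -0.33 at 48 h did not pass, although both DMSO libraries of 48 h lay below both of 24 h. By then 17 of 18 sterol enzymes had been called lower, and the difference between Srebf2 and these enzymes was not tested. The Srebf2 changes of -1.60 at 96 h and -1.32 at 7 d did pass (SE 0.15 each, adjusted p = 1.10e-07 and 1.62e-06). Srebf1 had 2664.6 and 2547 normalized reads in JNKi cells at 7 d and 2405.2 and 2382.5 in DMSO cells at 7 d, against 4298.8 and 4641.2 in JNKi cells and 4018.2 and 4319 in DMSO cells at 24 h. The 24 h and 7 d libraries did not overlap, and Srebf1 changed by 0.03 at 48 h, which did not pass, and by -0.80 at 7 d (SE 0.08, adjusted p = 7.59e-07) in DMSO cells. Scap, the escort, was higher at 48 h (0.30, SE 0.08, adjusted p = 0.00993) and did not pass at 7 d (-0.15, adjusted p = 0.107); the 48 h call was lost when replicate 2 of 24 h or replicate 1 of 48 h was left out.

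Of the carriers, Stard4, which moves cholesterol between membranes, had 1053.6 and 1128.2 normalized reads in JNKi cells at 7 d, against 3153 and 3276.8 at 24 h, and 611 and 907 in DMSO cells at 7 d, against 2958.5 and 2811.1 at 24 h. Every 7 d library lay below every 24 h library. Stard4 changed by -0.99 at 48 h, -2.62 at 96 h and -1.95 at 7 d in DMSO cells (SE 0.15 each). Abca1, the efflux pump for cholesterol, was near the limit of detection. It was listed at 5.5 and 18.9 normalized reads in JNKi cells at 7 d and at 1.7 and 4.1 in DMSO cells at 7 d, which are 2 and 27 recovered reads and 1 and 6 recovered reads, and no earlier library held more than 3 reads. Abca1 is 1 of the 2 members called higher at 7 d in DMSO cells, and edgeR and DESeq2 did not call it there.

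The inhibitor was compared with the vehicle at each time. JNKi against DMSO gave 0 of 34 members at 24, 48, 72 and 96 h with limma, edgeR and DESeq2, none of which paired the libraries. Unadjusted p under 0.05 was reached by 1 member (24 h), 0 (48 h), 3 (72 h) and 2 (96 h), and the share of all genes called was 0% (24 h), 0% (48 h), 0.072% (72 h) and 0.0072% (96 h). The sign was positive for 33 of 34 members (24 h), 16 (48 h), 24 (72 h), 25 (96 h) and 27 (7 d), in libraries that the members share. A limma fit with a replicate block within each time, described at the end, did give calls at 72 and 96 h.

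At 7 d 6 of the 18 sterol enzymes, 1 of the 9 fatty acid enzymes, Insig1 and Stard4 were called higher under JNKi, and all of these calls were lost without replicate 1 of DMSO. Limma called 9 members higher and 1 lower, where 10.2% of all genes were called (4.84% higher and 5.33% lower), and edgeR called 8 members and DESeq2 11. The higher members were the sterol enzymes Acat2, Idi1, Fdft1, Sqle, Hsd17b7 and Sc5d, together with Insig1, Stard4 and Fasn, and the lower member was Fads1. The median log2 difference was 0.26 over the 18 sterol enzymes, 0.32 over the 9 fatty acid enzymes and 0.02 over all genes tested.

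Sqle at 7 d had 3410.5 and 4063.6 normalized reads in JNKi cells and 2028.2 and 2730.6 in DMSO cells. The log2 difference was 0.66 (SE 0.13, adjusted p = 0.00598), with no overlap between the arms. Fasn at 7 d had 13284.2 and 13591.5 in JNKi cells and 8782.6 and 11019.1 in DMSO cells, a difference of 0.45 (SE 0.09, adjusted p = 0.00539). Insig1 had 1577.7 and 1919.8 in JNKi cells and 806.2 and 1229.4 in DMSO cells, a difference of 0.81 (SE 0.22, adjusted p = 0.0294). In each of these genes replicate 1 of DMSO was the lowest of the 4 libraries. Acat2 had 690.4 and 683.1 in JNKi cells and 303 and 572.5 in DMSO cells, a difference of 0.72 (SE 0.21, adjusted p = 0.0377). Idi1 had 1172.9 and 1227.6 in JNKi cells and 580.7 and 1032.1 in DMSO cells, a difference of 0.63 (SE 0.19, adjusted p = 0.0407). The 2 DMSO libraries of Acat2 and Idi1 lay further apart than the 2 JNKi libraries, and both stayed below them.

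Hsd17b7 had 1100.8 and 1245.1 normalized reads in JNKi cells and 777.6 and 939.5 in DMSO cells, a difference of 0.45 (SE 0.14, adjusted p = 0.0491). Sc5d had 1350.3 and 1419.4 in JNKi cells and 1018.3 and 1119.3 in DMSO cells, a difference of 0.37 (SE 0.08, adjusted p = 0.0106). Fdft1 and Stard4 were higher by 0.57 (SE 0.16, adjusted p = 0.0331) and 0.55 (SE 0.15, adjusted p = 0.0325), and no library of one arm reached the other. Fads1 was lower under JNKi, at -0.28 (SE 0.08, adjusted p = 0.0302), with 7860.7 and 8130.1 in JNKi cells and 10322.7 and 9173.9 in DMSO cells. Srebf2 and Srebf1 themselves did not pass, at -0.07 (SE 0.15, adjusted p = 0.794) and 0.12 (SE 0.08, adjusted p = 0.37). Cyp51, at 0.17 (SE 0.14, adjusted p = 0.465), and Nsdhl, at 0.47 (SE 0.16, adjusted p = 0.0692), did not pass either, although Nsdhl had 1186.7 and 1402.6 in JNKi cells and 745.6 and 1156.4 in DMSO cells with no overlap, and neither did Scd1 at 0.43, Scd2 at 0.38 or Acss2 at 0.42.

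**Figure D4:**
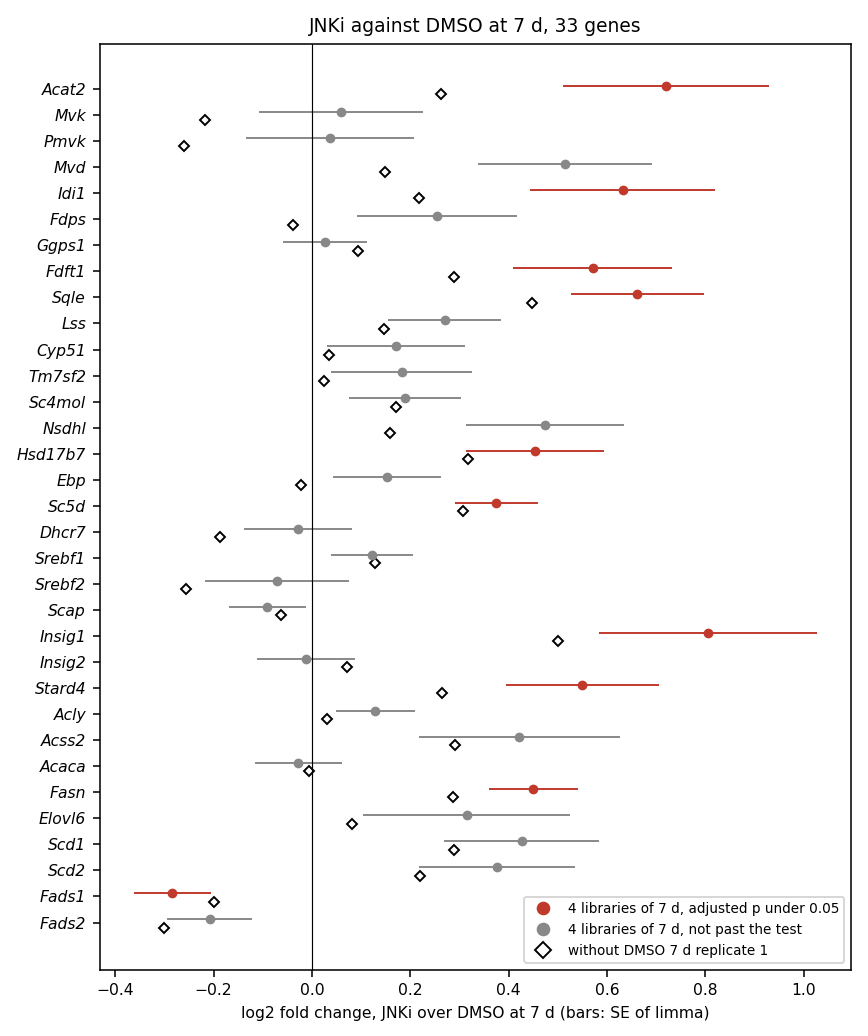
Log2 fold change of JNKi over DMSO at 7 d (x axis) for 33 members (rows in pathway order, Abca1 left out), with circles for the 4 libraries, bars for the SE of limma, red for an adjusted p under 0.05 and open diamonds for the value without DMSO replicate 1. Of the 10 red circles 9 lie right of 0, and the diamonds of those 9 lie closer to 0, for example Idi1 at 0.22 against 0.63.

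All 10 calls at 7 d were lost when replicate 1 of DMSO was left out, with Idi1 at 0.22 (adjusted p = 0.478), Sqle at 0.45 (adjusted p = 0.107) and Fasn at 0.29 (adjusted p = 0.0842), and the lone DMSO library was then assumed to vary like the other groups. Without replicate 1 of both arms 0 were called as well, without JNKi replicate 1 there were 2, and without JNKi replicate 2 there was 1. DMSO replicate 1 lay below DMSO replicate 2 in 28 of 34 members and in 17 of 18 sterol enzymes. The share was 49.8% among all genes that reached 10 normalized reads in any library. DMSO replicate 1 had 16.7 M reads against 40.9 M reads in replicate 2. In JNKi cells at 7 d, replicate 1, with 9.49 M reads, also lay below replicate 2 in 28 of 34 members. The share over all genes was not computed for JNKi. At 24 h replicate 1 likewise lay below replicate 2 in 17 of 18 sterol enzymes in each arm. Depth at 24 h was 20.7 M reads in replicate 1 against 21.0 M in replicate 2 for DMSO, and 25.8 M against 18.8 M for JNKi. The part of depth in these differences was not tested. Epithelial marker sums were lower in both JNKi libraries of 7 d than in both DMSO libraries. The other marker sums were higher in both JNKi libraries: 41.6 and 46.2 in JNKi cells against 16.8 and 17.7 in DMSO cells for adipocytes, 2390.1 and 2223 against 1875.1 and 1788.4 for leukocytes, and 407.5 and 408.1 against 348.5 and 299.5 for endothelium. Of the single markers tested, Cd14 was called higher and Krt18 lower under JNKi. The part of these markers in the 7 d differences was not tested.

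Averaged over the 5 times, JNKi against DMSO called 5 members higher and 0 lower, where 4.77% of all genes were called (2.45% higher and 2.32% lower), and edgeR called 4 and DESeq2 7. These were Insig1 at 0.44 (SE 0.10, adjusted p = 0.0182), Acat2 at 0.35, Sqle at 0.23, Sc4mol at 0.19 and Sc5d at 0.15. The count was 10 without DMSO 7 d replicate 2. It was 1 to 3 without any other single library except DMSO 24 h replicate 2, DMSO 96 h replicate 1, JNKi 24 h replicate 1 and JNKi 7 d replicate 1. Whether the JNKi effect at 7 d differed from that at 24 h was tested directly: limma called 0 of 34 members, with 2.1% of all genes called, 4 members at an unadjusted p under 0.05, edgeR calling 0 and DESeq2 1, and 5 members called without DMSO 7 d replicate 2. The members nearest to a call in that test were Fads1 at -0.39 (SE 0.11, adjusted p = 0.0827) and Sqle at 0.52 (SE 0.19, adjusted p = 0.174). A replicate block within each time, described at the end, gave more calls in that test and for the mean over the 5 times.

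Neighbouring pathways were described from 5 lists outside the 34 genes, by counts at 7 d against 24 h in DMSO cells, where 32% of all genes were called higher and 28% lower. In the isoprenoid branch (prenyltransferases, dolichol and ubiquinone enzymes) 1 of 13 genes was higher and 5 lower, with a median of -0.15. Pggt1b, a subunit of a prenyl transferase, was higher by 0.53, and Pdss1, which builds the ubiquinone tail, was lower at -0.65. Among 10 genes of SREBP processing and sterol sensing, 2 were higher and 1 lower (median 0.13), the lower one being the segregase Vcp at -0.90. Of 14 genes of sterol uptake, transport, storage and efflux, 3 were higher and 4 lower (median -0.05). Vldlr, a lipoprotein receptor, was at 1.30 and Npc2, a lysosomal cholesterol carrier, at 0.83, while Tmem97, which binds NPC1, was at -1.06. Fatty acid elongation, activation and glycerolipid synthesis had 3 of 21 higher and 13 lower (median -0.39), with the acyl-CoA synthetases Acsl3 at -1.56 and Acsl5 at -1.10 and the lipid droplet coat gene Plin2 at 0.58. Fatty acid oxidation had 5 of 15 higher and 5 lower (median -0.09), with the electron carrier gene Etfb at 0.99 and the acyl-CoA dehydrogenase gene Acadm at -0.71.

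For JNKi against DMSO at 7 d those lists gave 1 higher and 0 lower in the isoprenoid branch, 0 and 1 in SREBP processing, 0 and 1 in sterol transport, 2 and 2 in fatty acid elongation and glycerolipids, and 0 and 2 in fatty acid oxidation. In all, 9 of the 73 genes tested were called (12.3%), against 10.2% of all genes (4.84% higher and 5.33% lower), and 3 were called without replicate 1 of DMSO, 3 without either JNKi library and 13 without replicate 2 of DMSO. Vldlr had 510.2 and 562.7 normalized reads in JNKi cells and 1099.1 and 892.2 in DMSO cells (-0.88, SE 0.22, adjusted p = 0.0172). Plin2 had 16827.7 and 15682.8 in JNKi cells and 26899.9 and 23139.8 in DMSO cells (-0.62, SE 0.11, adjusted p = 0.0021). Lpin1, a phosphatidate phosphatase, had 496.3 and 543.1 in JNKi cells and 292.9 and 306.2 in DMSO cells (0.79, SE 0.12, adjusted p = 7.09e-04). The arms did not overlap at 7 d in these 3 genes, which were named for large called changes in this same comparison. The share of all genes without overlap was not computed, so the lack of overlap is not counted as support. Without replicate 1 of DMSO the Vldlr call was lost (-0.73, adjusted p = 0.164), while Plin2 (-0.51, adjusted p = 0.0406) and Lpin1 (0.76, adjusted p = 0.0107) still passed. Leaving out either JNKi library of 7 d also ended the Vldlr call, and leaving out replicate 1 of both arms ended that of Plin2 (adjusted p = 0.116).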

How the data were processed

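Each of 20261 genes has, in each of 20 libraries, a signal value deposited by the authors: its read count after normalization. The submitters' processing notes name TopHat, HTSeq, DESeq and build mm9, without versions. Whether counting used strand is not stated in those notes, so reads of overlapping or antisense genes, and of near-identical copies, may be split wrongly. Low values were whole multiples of 1 step per library, and dividing by that step gave whole reads (within 0.1) for at least 99.97% of the values above 0. Depth was the sum of these recovered reads. The tests used log2(deposited value + 1) and limma 3.58.1 under R 4.3.3. All 20 libraries entered 1 fit with an intensity trend and a mean for each group, for the 13896 genes whose mean reached 10 in any group. Contrasts were two-sided, with Benjamini-Hochberg adjustment over all genes tested and 0.05 as the threshold. Fold changes on the log2(value + 1) scale understate changes of low genes. SE stands for limma's standard error. The alternatives were a pseudocount of 8, no filter, a group mean of at least 50, TMM rescaling, edgeR 4.0.16 and DESeq2 1.42.0 on the recovered reads, replicate blocks and each library left out; the fit was tested on simulated data.

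The members, lists, roles and tests were chosen with earlier results of these data known. Values per library, at all times or at the times compared, are given for the 2 members per role with the largest change at 7 d against 24 h in DMSO cells and at 7 d between the arms, and for Srebf1, Srebf2, Insig1, Insig2, Fasn and Scd1; those of Fads1, Ggps1 and Sc5d, and the percentages of Lss, Sc4mol and Acaca, were added after seeing their values. From the lists of isoprenoid branch, SREBP processing, sterol transport, fatty acid elongation and glycerolipid, and fatty acid oxidation genes, up to 2 genes each way were eligible. The comparisons of 72 h with 48 h and of 96 h with 72 h in DMSO cells, and of 7 d with 96 h in JNKi cells, were added after seeing the data. Promoter windows of 300 bases came from RefSeq (GRCm38.p6), and the 250 bases before the start were searched.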

Additional observations from a re-analysis of the deposited data

How the results depend on the processing

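For the time comparisons within an arm, counts of called members stayed within 1.5 times of the reported count under all alternatives run. Leaving out single libraries gave 27 to 30 members for DMSO 7 d against 24 h, 17 to 23 for 48 h, 21 to 26 for 72 h and 26 to 27 for 96 h against 24 h, and 14 to 20 for DMSO 7 d against 96 h. JNKi against DMSO at 7 d ranged from 0 to 13 when single libraries were left out, the mean over the 5 times from 1 to 10, and the test of 7 d against 24 h effects from 0 to 5; without replicate 1 of both 7 d groups, an alternative chosen after seeing the data, the first 2 of these counts were 0 and 0. With no filter on low values the mean over the 5 times gave 2 members, and with DESeq2 the test of 7 d against 24 h effects gave 1. Signs were checked per gene for DMSO 48 h, 96 h and 7 d against 24 h and for JNKi against DMSO at 7 d. In those comparisons no value changed sign in a called result. The 2 libraries per group and the shallow 7 d libraries limit what the inhibitor comparisons can show.

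Replicate numbers are shared between groups, but the differences between replicates 1 and 2 correlated between the arms, across 9605 genes with a mean of at least 200 (genes are not independent replicates), at 0.726, 0.591, 0.723 and 0.527 at 24, 48, 72 and 96 h and at only 0.0724 at 7 d. Every time had to pass 0.1 and 7 d did not, so the numbers were not taken to pair the samples. The inhibitor tests reported above thus leave out a replicate difference that the arms shared at 24, 48, 72 and 96 h. A replicate block gave counts within 1.5 times of those reported for all comparisons, for example 10 members at 7 d. A replicate block within each time gave 2 members at 72 h, 1 at 96 h and 17 at 7 d for JNKi against DMSO, 17 for the mean and 4 for the test of 7 d against 24 h effects, and the cause was not tested.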
